A study of Mus musculus with 22 samples.

Results

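The matrix metalloproteinases (Mmp), the ADAMTS proteases (Adamts) and the tissue inhibitors of metalloproteinases (Timp) were described in tumors grown from MC38 cells, in the cultured cells themselves and in skin. The members were all genes of the expression table whose symbol is Mmp, Adamts or Timp followed by a number and, where present, a final letter, and the Adamtsl genes, which lack the protease domain, were left out. This gave 46 of 46882 genes, made up of 23 Mmp, 19 Adamts and 4 Timp genes.

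The study followed tumors of the mouse colon adenocarcinoma line MC38 in hosts with and without T and B cells, and set the cell line beside skin. RNA from 16 libraries was measured by sequencing the 3′ ends of mRNAs (QuantSeq). Tumors were taken from wild-type C57BL/6N hosts at day 23 and day 46 and from RAG1-/- hosts (B6.129S7-Rag1tm1Mom/J), which carry a disrupted Rag1 gene and lack mature T and B cells, at day 13 and day 23, with 3 libraries in each of these groups. The MC38 group held 2 libraries of cells collected at day 0, with no age or genotype given, and the skin group held 2 libraries of wild-type skin taken at day 23. Hosts were 8 to 12 weeks old, and the cells had been placed under the skin of the left flank of female mice. All tumors came from 1 cell line, and each had been divided at random into pieces of which 1 was used for RNA, so a library is a sample of a piece that holds tumor cells together with host cells. The earlier time point differed between the genotypes, and only day 23 was shared. Nothing states that the 2 MC38 or the 2 skin libraries came from separate cultures or animals. A p-value from a fit rests on the spread within all groups of that fit, tumors included where they were fitted. Within the MC38 and skin groups this spread may be technical.

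Both protease families are zinc enzymes that are secreted or held at the cell surface as inactive precursors and act on matrix once their prodomain is removed. Collagenases cut fibrillar collagen, gelatinases cut denatured and basement membrane collagen, stromelysins and elastase have broader substrates, membrane-bound members act at the cell surface, and ADAMTS enzymes cut proteoglycans or trim procollagen. TIMPs bind the active sites of these enzymes and block them. In solid tumors much of this protease system is known to be made by fibroblasts, macrophages and other host cells as well as by tumor cells.

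Between 5589151 and 26134241 reads per library lay on genes, and a level is given as the normalized count, the reads divided by the size factor of the library. A count of 3 reads, taken as the floor of detection, was worth 1.33 to 6.38 normalized counts depending on the library, and floors and intervals given below cover counting error only. Since a QuantSeq tag comes from the 3′ end, a level does not grow with transcript length. Igkc, the immunoglobulin kappa constant gene, separated the hosts, with 50.7 to 287 normalized counts in wild-type tumors and 0 to 1.77 in RAG1-/- tumors. Rag1 itself had 0 or 1 read in wild-type tumors and 1 to 12 in RAG1-/- tumors, and 3′ tags that cannot be placed inside or outside the disrupted part do not check the label. In the MC38 cells the 5 epithelial markers Epcam, Krt8, Krt18, Krt19 and Cdh1 summed to 4.28 and 5.87 normalized counts, with Krt18 and Krt19 at 0, so the epithelial identity of the line was not visible in these genes. The 9 fibroblast markers summed to between 6718 and 7376 in the cells, with Lum, Thy1 and Fap at 0, and the 6 keratinocyte markers summed to at least 330164 in skin. In bulk RNA a smaller number of cells of a type and less RNA per cell cannot be told apart.

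Few members were abundant, and the cell line used the fewest. In skin 34 of the 46 members averaged at least 5 normalized counts, in the 12 tumors together 29, and in MC38 cells 17. At an average of at least 100, the counts were 19 in skin, 17 in tumors and 8 in MC38 cells. MC38 cells had no read of 20 members in either library, against 5 members in skin. Mmp21 had no read in any of the 16 libraries. In all, 11 members were too low for a test in every comparison, namely Mmp1a, Mmp1b, Mmp7, Mmp20, Mmp21, Mmp24, Mmp25, Mmp28, Adamts3, Adamts13 and Adamts19, and the highest value any of them reached was 12.7 normalized counts, for Mmp28 in skin. Of the other 35 members, 32 passed the test in at least 1 comparison (91.4%), against 74.6% of all 17360 genes tested somewhere.

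**Figure D1:**
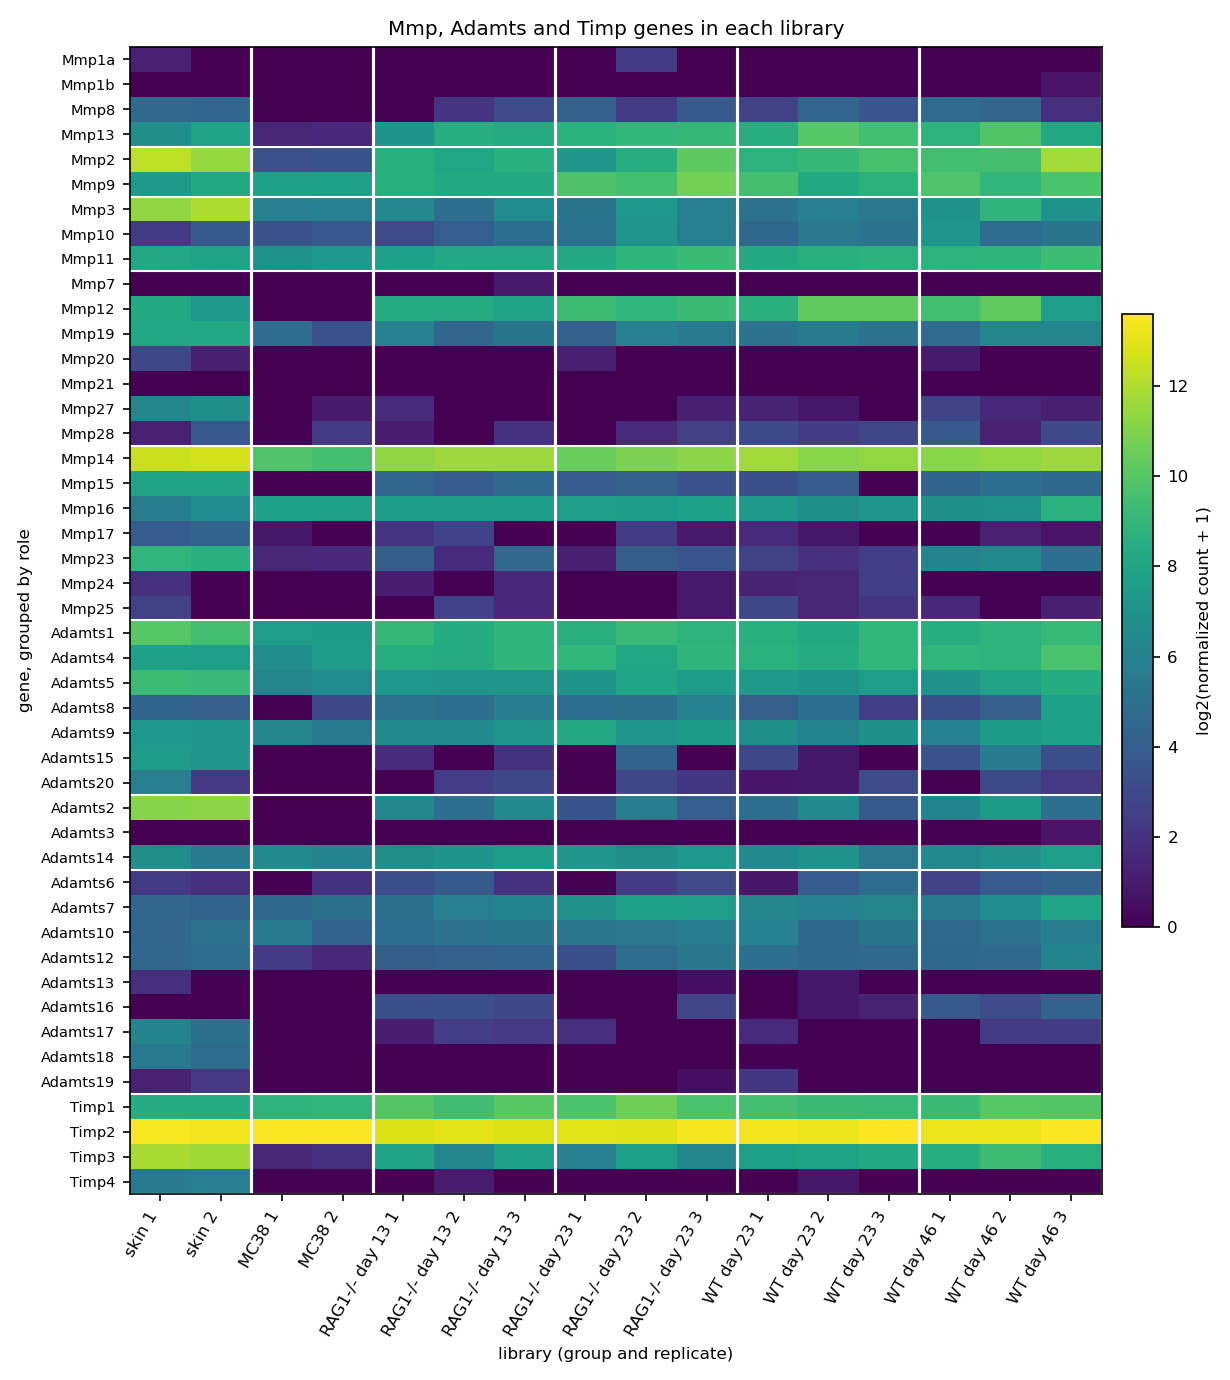
Levels of the 46 members in the 16 libraries, as log2(normalized count + 1) on a color scale, with genes in rows grouped by role and libraries in columns grouped by tissue, genotype and day. Timp2 and Mmp14 are bright in every column, and Mmp12, Mmp15, Adamts2 and Timp4 are at 0 in both MC38 columns.

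The balance between proteases and inhibitors differed between the sample types. The Timp genes held 85.2% ± 0.51 (SD, n = 2) of all member tags in MC38 cells and 42.0% ± 1.75 (SD, n = 2) in skin. The means of the 4 tumor groups lay between these values, from 54.9% ± 2.81 (SD, n = 3) in wild-type tumors at day 46 to 60.6% ± 2.10 (SD, n = 3) in wild-type tumors at day 23. The Mmp share was 10.5% ± 0.70 (SD, n = 2) in MC38 cells, 31.0% ± 4.06 to 35.8% ± 1.16 (SD, n = 3) in the tumor groups and 44.8% ± 2.09 (SD, n = 2) in skin. Timp2 alone made up 81.9% ± 0.19 (SD, n = 2) of the member tags in MC38 cells. No group mean exceeded that of skin for 12 Mmp genes, and all of these but Mmp21, at 0 in every group, were highest in skin. Skin also had the highest group mean for 9 Adamts and 2 Timp genes. Timp2 was the single member whose highest mean was in MC38 cells.

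Of the 23 Mmp genes, 10 lie side by side on chromosome 9 (mm10, chr9:7272514-7699585), in the order Mmp13, Mmp12, Mmp1b, Mmp3, Mmp1a, Mmp10, Mmp8, Mmp27, Mmp20 and Mmp7. The stretch is 427 kb long and holds 0 other protein-coding genes, and 9 of the 10 genes are on the plus strand. Members of this cluster are known targets of AP-1, the Fos and Jun transcription factors that respond to growth signals and inflammation. The words TGACTCA and TGAGTCA, which are the AP-1 site read on both strands, were searched in the 250 bases before each RefSeq start (GRCm38.p6). They were found for 7 of the 10 cluster genes (70%) and for 0 of the 22 other members with a RefSeq promoter, against 5.16% of all 27025 genes with a RefSeq promoter. Members without a matched promoter, among them Mmp2 and Mmp9, were not searched. A match of letters describes the window and is not evidence of binding. The 100 bases before the start are shown for the cluster genes with measurable levels, 5′ to 3′ on the plus strand, with the AP-1 word in capitals. Mmp12 has 2 RefSeq starts, of which the second lies inside an intron of the longer transcript, and only this second start has the word.
Mmp13 (chr9:7272414-7272513): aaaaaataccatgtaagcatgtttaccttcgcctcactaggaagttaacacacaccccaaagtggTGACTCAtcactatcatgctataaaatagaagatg
Mmp12, first start (chr9:7344297-7344396): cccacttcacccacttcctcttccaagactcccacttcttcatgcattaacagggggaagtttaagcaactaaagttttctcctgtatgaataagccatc
Mmp12, second start (chr9:7347274-7347373): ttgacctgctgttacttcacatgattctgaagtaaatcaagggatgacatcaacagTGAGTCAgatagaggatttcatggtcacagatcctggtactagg
Mmp3 (chr9:7445722-7445821): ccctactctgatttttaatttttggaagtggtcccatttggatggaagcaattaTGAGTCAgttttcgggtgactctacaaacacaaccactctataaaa
Mmp10 (chr9:7502242-7502341): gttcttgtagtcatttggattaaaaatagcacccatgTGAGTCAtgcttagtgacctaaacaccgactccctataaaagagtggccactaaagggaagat
Mmp8 (chr9:7558329-7558428): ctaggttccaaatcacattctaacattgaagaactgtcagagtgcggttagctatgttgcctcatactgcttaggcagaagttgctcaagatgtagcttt
Mmp27 (chr9:7571296-7571395): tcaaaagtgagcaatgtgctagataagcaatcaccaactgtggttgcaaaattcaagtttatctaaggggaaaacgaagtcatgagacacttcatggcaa
The word stood 35 bases before the start in Mmp13, 46 in Mmp3 and 63 in Mmp10, counted to its first base. Neighbors in the cluster, with or without the word, had different patterns across the samples. Mmp3 and Mmp27 were highest in skin, Mmp12 and Mmp13 had their highest group means in tumors, and Mmp1a, Mmp1b and Mmp7, all 3 with the word, were at or near 0 throughout.

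**Figure D2:**
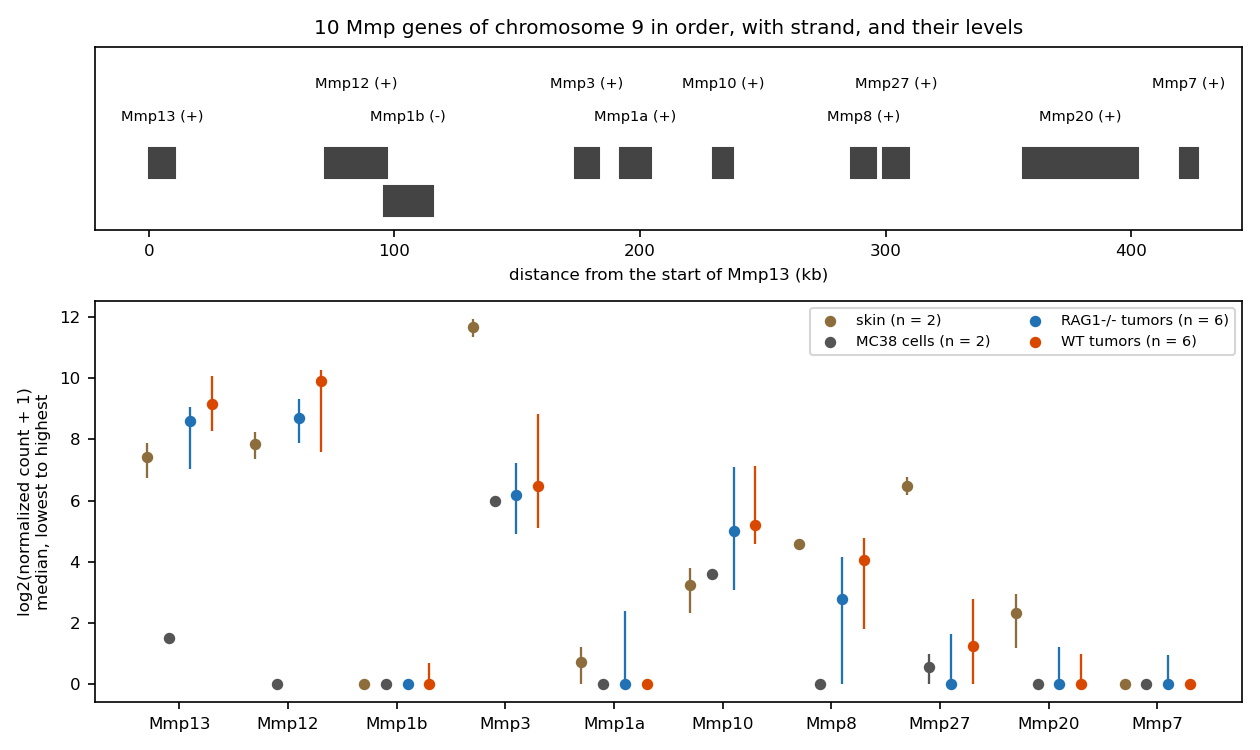
The upper panel maps the 10 chromosome 9 Mmp genes to scale by distance from the start of Mmp13 in kb, and the lower panel gives the median and range of log2(normalized count + 1) of each gene in skin (n = 2), MC38 cells (n = 2), RAG1-/- tumors (n = 6) and wild-type tumors (n = 6). Mmp12 and Mmp13 are near 0 in the cells and high in tumors and skin, whereas Mmp3 is far above the other groups in skin.

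The first comparison asked how the cell line differed from skin before it met a host. Of 33 members tested, 23 were lower and 1 was higher in MC38 cells than in skin at an adjusted p under 0.05 (limma on log2(normalized count + 1)), against 62% of all genes called, 41.2% lower and 20.8% higher. The median log2 difference was -3.71 over the members tested and -0.40 over all genes. The filter shaped this count, since 16 of the 33 reached an average of 5 normalized counts only in skin. Of the 17 members above it in both groups, 9 were called. The values of the cells and of skin did not overlap for 29 members, 25 lower and 4 higher, against 82% of all genes. With 2 libraries a side, an exact permutation test cannot give a p below 0.333.

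Adamts2, Timp3 and Mmp2 had the largest log2 differences of the members. Adamts2 (chr11:50602084-50807573, mm10), which removes the N-terminal propeptide of procollagen, had 2244 and 2400.5 normalized counts in skin and no read in MC38 cells, at least 792-fold lower (limma, adjusted p = 1.03e-04). Timp3 (chr10:86300372-86349506), the inhibitor that binds to the matrix, had 3778 and 3193 in skin and 1.71 and 2.93 in the cells, a difference of 1528-fold (95% interval 655 to 4705) that rests on 5 reads (limma, adjusted p = 1.06e-04). The last 500 exonic bases of Timp3 overlap Syn3 on the other strand, and Syn3 had at most 3 reads in any library. Mmp2 (chr8:92827291-92853420), gelatinase A, had 5086 and 2797 in skin and 9.41 and 10.8 in the cells, a log2 difference of -8.41 (SE 0.34, limma, adjusted p = 1.45e-04). The sum of the fibroblast markers was lower as well, at 235287 to 267821 in skin and 6718 to 7376 in MC38 cells. Of these markers Pdgfra (510 and 556 in skin, 1220 and 1250 in the cells) and Pdpn (1054 and 1154, 1585 and 1574) went the other way. The other fibroblast markers were lower in the cells, and the part of fibroblasts in the result was not tested.

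In this fit 1 member was higher in the cells, Mmp16 (chr4:17852893-18119145), a membrane-bound enzyme, with 222 and 214 normalized counts in MC38 cells and 50.9 and 95.6 in skin, a log2 difference of 1.63 (SE 0.36, limma, adjusted p = 0.0139). Mmp14 (chr14:54431612-54445364), the membrane-bound activator of pro-Mmp2, was the most abundant protease of the cells at 916 and 743, and lay below skin, at 5818 and 6683, with a log2 difference of -2.92 (SE 0.16, limma, adjusted p = 2.25e-04). Mmp9, gelatinase B, had 215 and 206 in the cells and 158 and 301 in skin, where the groups overlapped. Timp2 (chr11:118301069-118355740), which inhibits Mmp14 and also helps it to activate pro-Mmp2, stood at 11807 and 11634 in the cells and 11350.2 and 10063 in skin, the highest level of any member in both, and a difference of 0.13 (SE 0.12, limma, adjusted p = 0.383) did not pass the test. Timp1 had 442 and 498 in the cells and 346 and 344 in skin, a difference of 0.44 (SE 0.16, limma, adjusted p = 0.0613). Timp1 passed as higher in the cells with edgeR, with DESeq2 and after rescaling to upper quartiles or totals, and Timp2 also passed after either rescaling.

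The secreted enzymes Mmp3, Mmp8, Mmp12 and Mmp13 were lower in MC38 cells. Mmp3 had 2608 and 3932 normalized counts in skin and 59.0 and 64.5 in the cells, a log2 difference of -5.67 (SE 0.24, limma, adjusted p = 1.56e-04). Mmp12 had 303 and 162 and Mmp8 25.5 and 20.4 in skin, both with no read in the cells, at least 79.2-fold and 7.82-fold lower. Mmp13 had 106 and 237 in skin, 94.0-fold (95% interval 36.7 to 345) above the 4 reads of the cells and 58.0-fold without skin replicate 2. Also lower were Mmp19 (276 and 273 in skin and 28.2 and 9.78 in the cells), Mmp27 (71.0 and 107 and 0 and 0.978) and Mmp11 (288 and 229 and 125 and 152, a difference of -0.90), whereas Mmp10 had 4.02 and 12.7 and 10.3 and 11.7 and did not pass (limma, adjusted p = 0.493). Of the membrane-bound members, Mmp15 had 246 and 243 in skin and no read in the cells, at least 83.5-fold lower. Mmp23 had 496 and 394 and Mmp17 14.7 and 19.1 in skin, 244-fold (95% interval 95.2 to 894) and 37.1-fold (95% interval 6.66 to 1465) above the cells, which had 4 reads and 1 read. Without the MC38 library that held the 1 read of Mmp17, the cells were at least 5.77-fold lower, and without the other 19.8-fold. The adjusted p of these members was 0.0232 (limma) at most, for Mmp11.

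Of the ADAMTS genes besides Adamts2, 8 were lower in the cells. Adamts15, Adamts17, Adamts18 and Adamts20 had no read there. Skin held 173 and 145 normalized counts of Adamts15, 69.7 and 31.9 of Adamts17 and 44.2 and 26.8 of Adamts18, so the cells were at least 54.2-fold, 17.3-fold and 12.1-fold lower, the bound for Adamts17 falling to 10.9-fold without skin replicate 1. Adamts20 had 54.9 and 3.82 in skin, nearly all of it in 1 library. Adamts1 had 1056 and 701 in skin and 189 and 170.1 in the cells (-2.26 on the log2 scale), Adamts5 had 631 and 565 in skin and 71.9 and 98.7 in the cells (-2.81), and Adamts9 had 151 and 143 in skin and 79.6 and 45.0 in the cells (-1.28). Adamts12 had 21.4 and 26.8 in skin, 7.55-fold (95% interval 3.66 to 18.8) above the 7 reads of the cells, or 12.3-fold without MC38 replicate 1. All of these passed, with an adjusted p of 0.037 (limma) at most, for Adamts20. Adamts4 (216 and 187 in skin and 99.3 and 185 in the cells), Adamts7, Adamts8, Adamts10 and Adamts14 did not pass (limma, adjusted p of 0.0697 for Adamts8 and higher for the others).

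Several calls of this comparison were lost when 1 library was left out, which leaves 1 library in its group. For Mmp19 the log2 difference was -3.95 and -3.96 without skin replicate 1 or 2, against -3.96 with both. That of Mmp11 was -0.73 and -1.06, against -0.90. Adamts12, Adamts5, Adamts9, Mmp11, Mmp17, Mmp19 and Mmp27 were no longer called without either skin replicate 1 (adjusted p of 0.0505 to 0.236) or skin replicate 2 (0.0511 to 0.219), Adamts12, Adamts20, Adamts9, Mmp11 and Mmp16 without MC38 replicate 2 (0.0546 to 0.127), and Adamts20, Mmp11 and Mmp16 without MC38 replicate 1 (0.0721 to 0.146, all by limma). The 15 members called under every alternative that gave them an adjusted p were Adamts1, Adamts15, Adamts17, Adamts18, Adamts2, Mmp12, Mmp13, Mmp14, Mmp15, Mmp2, Mmp23, Mmp3, Mmp8, Timp3 and Timp4. Adamts18 and Mmp8 had an adjusted p in 13 and 14 of the 15 alternatives.

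The second question was which proteases a tumor held beyond those of the injected cells. In wild-type tumors 19 of 29 members tested were higher than in MC38 cells and 0 were lower, against 27.9% of all genes called, 18.3% higher and 9.61% lower. In RAG1-/- tumors 18 of 29 were higher and 1 was lower, against 23.3% of all genes called, 15.8% higher and 7.55% lower. Both comparisons use the same 2 MC38 libraries and are therefore not independent. The median log2 difference over the members tested was 1.81 in wild-type and 1.48 in RAG1-/- tumors, against 0.05 and 0.06 over all genes. The filter again shaped the counts, with 12 members in the wild-type and 11 in the RAG1-/- comparison above an average of 5 only in the tumors, and among the 17 above it on both sides 10 and 11 were called. The values did not overlap for 17 members, all higher, in wild-type tumors (37.4% of all genes) and for 17 higher and 1 lower in RAG1-/- tumors (36.6%). For 6 libraries set against 2, the smallest p of an exact permutation test is 0.0714, which the members reached in both comparisons.

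Mmp12 and Mmp13 had the largest differences. Mmp12 (chr9:7344381-7369499), the macrophage elastase, had no read in either MC38 library. In RAG1-/- tumors its normalized counts were 339, 334 and 236 at day 13 and 635, 494 and 610.2 at day 23, and in wild-type tumors 385, 1224 and 1242 at day 23 and 718, 1229 and 193 at day 46. All 12 tumors were thus far above the cells, with the lowest value in wild-type replicate 3 at day 46. The difference was at least 284-fold in wild-type tumors (limma, adjusted p = 7.51e-11) and at least 150.5-fold in RAG1-/- tumors (limma, adjusted p = 2.53e-10). Mmp1b overlaps part of the 3′ end of Mmp12 on the other strand and had 1 read in all libraries together.

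Mmp13 (chr9:7272514-7283331), the main collagenase of the mouse, had 1.71 and 1.96 normalized counts in MC38 cells, from 4 reads. Its levels were 131, 355 and 328 in RAG1-/- tumors at day 13, 418, 517 and 536 at day 23, 361, 1068 and 705 in wild-type tumors at day 23 and 442, 972 and 309 at day 46. No tumor overlapped the cells, and the ratio was 352-fold (95% interval 138 to 1293) in wild-type and 209-fold (95% interval 81.5 to 766) in RAG1-/- tumors (limma, adjusted p = 1.27e-10 and 5.61e-10). Mmp8, the neutrophil collagenase, had no read in the cells and 2.51, 15.8 and 26.4 as its lowest, median and highest count in wild-type tumors and 0, 5.94 and 17.0 in RAG1-/- tumors. These low levels passed in both comparisons (limma, adjusted p = 0.00618 and 0.0481), and the call was lost without either MC38 library in both. The other 2 collagenase genes, Mmp1a and Mmp1b, were not measurable.

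The macrophage markers summed to 6958 to 15541 normalized counts in the tumors and to 163 to 179 in MC38 cells, with Adgre1 and Mrc1 at 0 in the cells. The neutrophil markers summed to 31.3 to 251 in the tumors and 10.8 to 12.8 in the cells. Of these markers Cxcr2 went the other way in wild-type tumors, at 7.70 and 6.84 in the cells and 0 to 5.16 in the tumors. Among RAG1-/- tumors only day 13 replicate 1 and day 23 replicate 2 exceeded the cells in Cxcr2. Ly6g was at 0 in the cells and in all wild-type tumors but day 23 replicate 2. The part of macrophages and neutrophils in the levels of Mmp12, Mmp13 and Mmp8 was not tested.

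**Figure D3:**
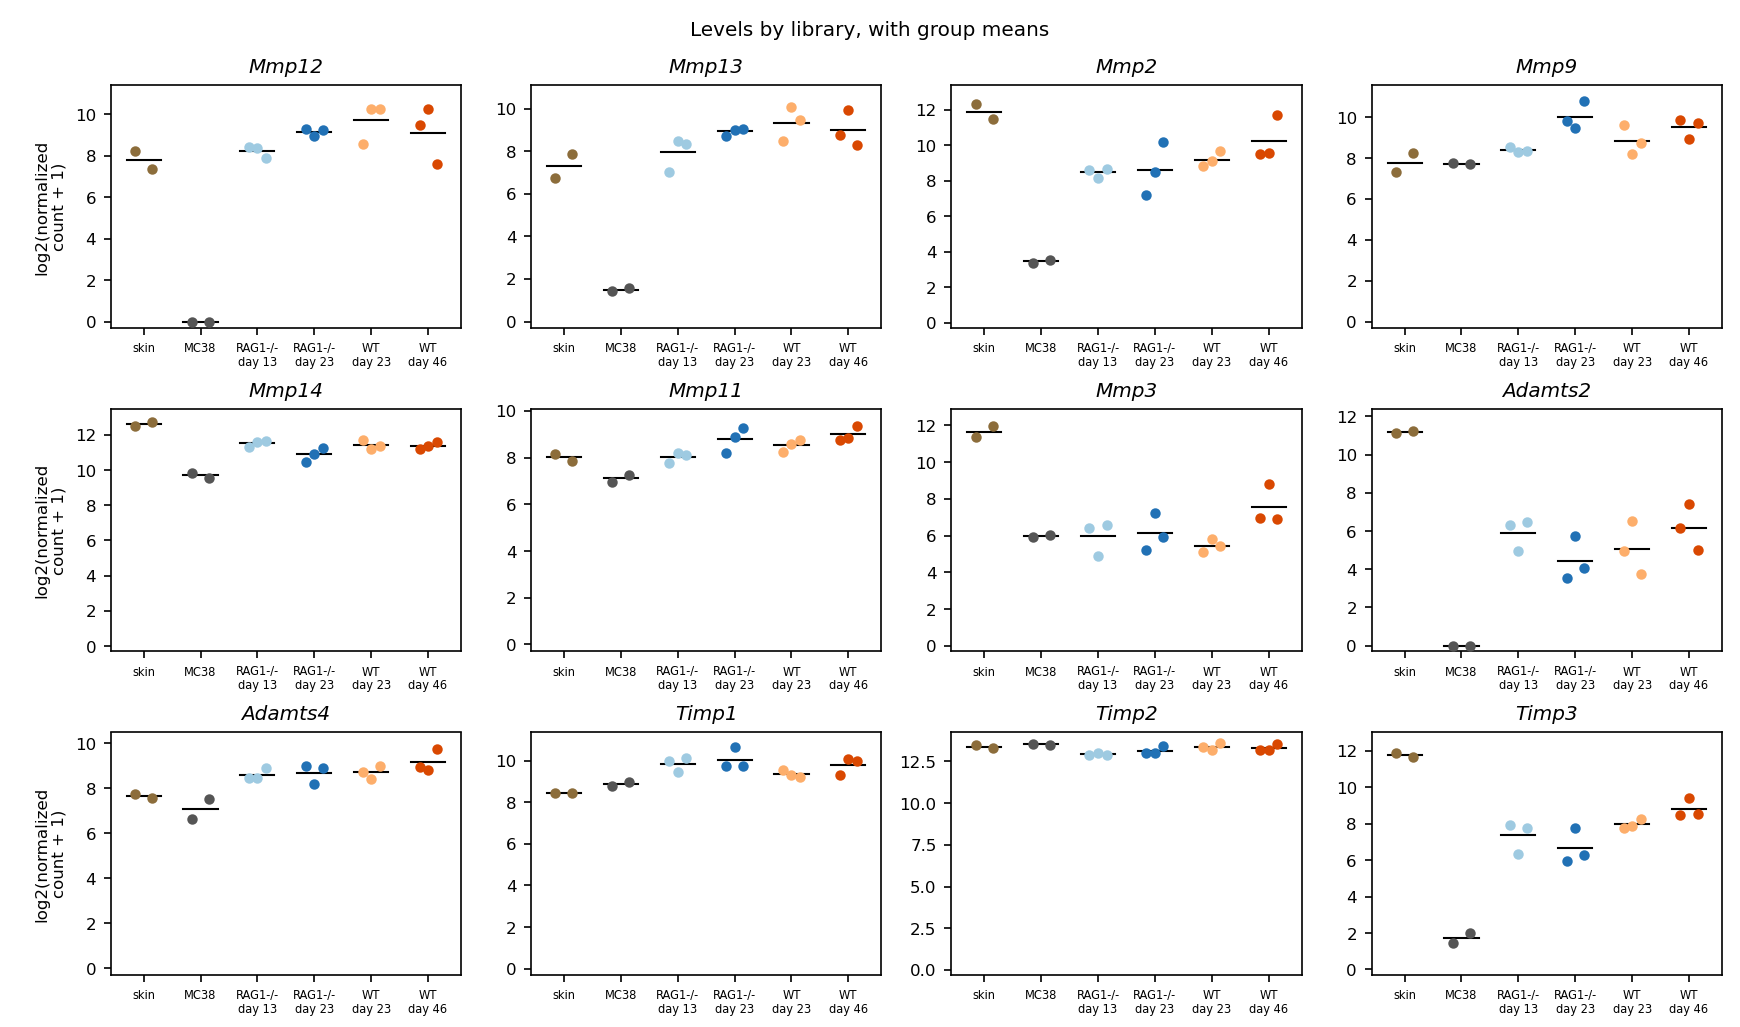
Levels of 12 members as log2(normalized count + 1), with 1 point per library and a line at the mean of each group, for skin and MC38 cells (n = 2 each) and the 4 tumor groups (n = 3 each). Mmp12, Mmp13, Mmp2, Adamts2 and Timp3 rise from near the bottom of the scale in MC38 cells to all 12 tumors, and Timp2 stays near the top in every library.

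The gelatinases were both higher in tumors than in the cells. Mmp2, at 9.41 and 10.8 normalized counts in MC38 cells, reached 383, 287 and 394 and 145, 357 and 1175 in RAG1-/- tumors at day 13 and day 23 and 449.9, 540.5 and 802 and 712, 763 and 3320.0 in wild-type tumors at day 23 and day 46. Every tumor was above the cells, and wild-type replicate 3 at day 46 stood apart at the top. The ratio of means was 109-fold in wild-type, 64.8-fold without that library, and 45.3-fold in RAG1-/- tumors, with log2 differences of 6.25 (SE 0.58, limma, adjusted p = 1.56e-07) and 5.08 (SE 0.58, limma, adjusted p = 2.74e-06). Mmp9 (chr2:164940780-164955850), at 215 and 206 in the cells, ranged from 292 to 940.2 in wild-type and from 318 to 1748 in RAG1-/- tumors. All tumors were again above the cells, by 1.46 (SE 0.34, limma, adjusted p = 0.00313) and 1.48 (SE 0.34, limma, adjusted p = 0.00321) on the log2 scale, and the RAG1-/- call was lost without MC38 replicate 2.

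Of the stromelysins, Mmp11 was higher in both genotypes. Its level was 125 and 152 in the cells and had a lowest, median and highest value of 301, 434 and 658 in wild-type and 215, 293 and 612 in RAG1-/- tumors, with log2 differences of 1.65 (SE 0.25, limma, adjusted p = 5.43e-05) and 1.29 (SE 0.25, limma, adjusted p = 7.62e-04). Mmp10 had 10.3 and 11.7 in the cells against 22.9, 35.6 and 139.8 in wild-type tumors, where the difference of 1.81 (SE 0.62, limma, adjusted p = 0.0362) passed, and 7.49, 31.1 and 136 in RAG1-/- tumors, which overlapped the cells with a difference of 1.42 (SE 0.62, limma, adjusted p = 0.108). Mmp3, the classic fibroblast stromelysin, had 59.0 and 64.5 in the cells and 33.2 to 456 in wild-type and 28.9 to 149 in RAG1-/- tumors, overlapping the cells in both. Its differences of 0.54 and 0.08 did not pass (limma, adjusted p = 0.52 and 0.941).

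Among the membrane-bound members, Mmp14 rose in both genotypes and Mmp16 did not pass. Mmp14 had 2569, 3128 and 3157 normalized counts in RAG1-/- tumors at day 13, 1407, 1943 and 2452 at day 23, 3318, 2364 and 2676 in wild-type tumors at day 23 and 2312, 2682 and 3073 at day 46, all above both MC38 libraries. The log2 differences were 1.72 (SE 0.19, limma, adjusted p = 1.57e-06) in wild-type and 1.51 (SE 0.19, limma, adjusted p = 8.68e-06) in RAG1-/- tumors. Mmp15 was at 0 in the cells, had a range of 0 to 29.5 in wild-type tumors and 9.72 to 23.8 in RAG1-/- tumors, and was higher by at least 5.40-fold and 5.67-fold (limma, adjusted p = 0.00222 and 6.83e-04). Mmp23, released from the membrane by cleavage, had 1.71 and 1.96 in the cells and 2.56, 18.0 and 90.6 as lowest, median and highest values in wild-type tumors, a ratio of 18.7-fold (95% interval 7.28 to 68.5) that passed the test (limma, adjusted p = 0.0214). In RAG1-/- tumors the values of Mmp23 were 1.31, 13.0 and 23.8, which overlapped the cells (limma, adjusted p = 0.145). Mmp16, at 222 and 214 in the cells, ranged from 108 to 430.1 in wild-type and from 172 to 216 in RAG1-/- tumors, which overlapped the cells, with differences of -0.47 and -0.23 (limma, adjusted p = 0.373 and 0.708). Its wild-type values were 165, 108 and 147 at day 23 and 111, 120 and 430.1 at day 46. Only day 46 replicate 3, at 430.1, lay above the cells, and without it limma called Mmp16 lower in wild-type tumors.

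The ADAMTS enzymes that cut proteoglycans were mostly higher in tumors, with 4 of 6 tested called in wild-type and 5 of 6 in RAG1-/- tumors, where 18.3% and 15.8% of all genes were called higher. Adamts1 had 189 and 170.1 normalized counts in the cells and 303, 403 and 553 as lowest, median and highest in wild-type and 345, 460.2 and 575 in RAG1-/- tumors, with log2 differences of 1.19 (SE 0.23, limma, adjusted p = 7.57e-04) and 1.32 (SE 0.23, limma, adjusted p = 3.41e-04). Adamts4, an aggrecanase, had 99.3 and 185 in the cells, 339, 467 and 840.0 in wild-type and 285, 414 and 505 in RAG1-/- tumors, with differences of 1.83 (SE 0.29, limma, adjusted p = 8.54e-05) and 1.55 (SE 0.29, limma, adjusted p = 5.39e-04). Neither overlapped the cells. Adamts5, the other main aggrecanase, had 71.9 and 98.7 in the cells and 128 to 346 and 132 to 255 in the tumors (differences 1.13 and 0.95, limma, adjusted p = 0.0121 and 0.0368). Adamts8 rested on 7 reads in the cells, all in MC38 replicate 2, and ranged from 4.75 to 205 and from 28.8 to 65.0, a ratio of 14.6-fold (95% interval 7.10 to 36.4) in wild-type and 12.7-fold (95% interval 6.16 to 31.6) in RAG1-/- tumors (limma, adjusted p = 0.0265 and 0.0062). The wild-type ratio fell to 4.69-fold without wild-type day 46 replicate 3, which held 205, and without MC38 replicate 1 the ratios were 6.82-fold and 5.92-fold. Adamts9 had 79.6 and 45.0 in the cells, 64.5 to 222 in wild-type and 87.8 to 291 in RAG1-/- tumors, and differed by 1.21 in RAG1-/- and 0.91 in wild-type tumors (limma, adjusted p = 0.04 and 0.109). Adamts15 was at 0 in the cells, ranged from 0 to 45.7 in wild-type and from 0 to 19.2 in RAG1-/- tumors and did not pass in either comparison (limma, adjusted p = 0.0956 and 0.457).

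Adamts2 had no read in MC38 cells. It reached 78.1, 30.0 and 89.5 normalized counts in RAG1-/- tumors at day 13, 10.5, 53.2 and 15.9 at day 23, 30.2, 90.4 and 12.7 in wild-type tumors at day 23 and 69.4, 171 and 30.8 at day 46. Every tumor held it, at least 23.0-fold above the cells in wild-type (limma, adjusted p = 1.11e-05) and at least 15.8-fold in RAG1-/- tumors (limma, adjusted p = 3.25e-05). Its relative Adamts14, also a procollagen N-proteinase, was present in the cells at 85.6 and 68.4 and ranged from 41.2 to 189 and from 104 to 176 in the tumors, where it did not pass (limma, adjusted p = 0.519 and 0.154). Of the remaining ADAMTS genes, Adamts12 had 4.28 and 1.96 in the cells and 22.2 to 70.3 and 9.16 to 38.9 in wild-type and RAG1-/- tumors, ratios of 10.2-fold (95% interval 4.93 to 25.3) and 6.60-fold (95% interval 3.20 to 16.4), or 16.6-fold and 10.8-fold without MC38 replicate 1 (limma, adjusted p = 4.86e-04 and 0.004). Adamts7, which cuts cartilage oligomeric matrix protein, had 22.2 and 31.3 in the cells and 48.9 to 266 in wild-type and 31.0 to 209 in RAG1-/- tumors (differences 1.71 and 1.76, limma, adjusted p = 0.0107 and 0.0103). For Adamts7, 24.4% of the last 500 exonic bases overlap Tbc1d2b on the other strand, which had 221 to 692 normalized counts, and reads of these genes may be mixed since the strand setting was not stated.

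The 4 inhibitors went different ways. Timp3 rose from 1.71 and 2.93 normalized counts in the cells to 247, 81.2 and 217 in RAG1-/- tumors at day 13, 60.2, 213 and 76.4 at day 23, 213, 234 and 304 in wild-type tumors at day 23 and 349.9, 668 and 370.4 at day 46. No tumor overlapped the cells, and the ratio was 156-fold (95% interval 67.0 to 481) in wild-type and 65.4-fold (95% interval 28.0 to 201) in RAG1-/- tumors (limma, adjusted p = 1.77e-09 and 4.77e-08). Timp1 (chrX:20870166-20874735), an inducible inhibitor, had 442 and 498 in the cells, 597, 684 and 1080.3 as lowest, median and highest in wild-type tumors and 692, 932 and 1592 in RAG1-/- tumors. All tumors lay above the cells, by 0.69 (SE 0.25, limma, adjusted p = 0.0481) and 1.07 (SE 0.25, limma, adjusted p = 0.00411) on the log2 scale. Timp2 was the exception, with 7469, 8239 and 11026 in RAG1-/- tumors, all below the cells at 11807 and 11634, a difference of -0.48 (SE 0.16, limma, adjusted p = 0.0363). In wild-type tumors Timp2 had 9247, 10028 and 12407, which overlapped the cells, and a difference of -0.17 (SE 0.16, limma, adjusted p = 0.458). Timp4 had 1 read at most in any tumor and was not tested here.

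A number of calls against MC38 cells were lost when 1 library was left out, among large and small differences alike. Mmp8 had no read in either MC38 library, so its log2 differences of 3.62 in wild-type and 2.60 in RAG1-/- tumors could not move without 1 of them. The log2 difference of Adamts8 in wild-type tumors went from 2.95 to 1.46 without MC38 replicate 1. In wild-type tumors Adamts5, Adamts7, Adamts8, Mmp10, Mmp23, Mmp8 and Timp1 were lost without MC38 replicate 1 (adjusted p of 0.0606 to 0.457) and Adamts7, Mmp10, Mmp23, Mmp8 and Timp1 without MC38 replicate 2 (0.0503 to 0.161), while Timp1 was also lost without any 1 of wild-type day 23 replicates 1, 2 and 3 and day 46 replicates 2 and 3, Mmp10 without day 23 replicates 2 or 3 or day 46 replicate 1, and Adamts8 without day 23 replicate 2 (0.0524 to 0.0886, limma). In RAG1-/- tumors Adamts5, Adamts7, Adamts8, Adamts9, Mmp8, Timp1 and Timp2 were lost without MC38 replicate 1 (0.0607 to 0.318) and Adamts12, Adamts5, Adamts7, Adamts9, Mmp8, Mmp9 and Timp2 without MC38 replicate 2 (0.0511 to 0.423). Leaving out any 1 RAG1-/- library ended 1 to 4 calls, always among Adamts5, Adamts9, Mmp8 and Timp2 (0.0535 to 0.0938, limma). Under every alternative that gave them an adjusted p, 12 members stayed called in wild-type tumors (Adamts1, Adamts12, Adamts2, Adamts4, Mmp11, Mmp12, Mmp13, Mmp14, Mmp15, Mmp2, Mmp9 and Timp3) and 10 in RAG1-/- tumors (Adamts1, Adamts2, Adamts4, Mmp11, Mmp12, Mmp13, Mmp14, Mmp15, Mmp2 and Timp3). Mmp15 had an adjusted p in 19 of 20 alternatives in wild-type and 20 of 21 in RAG1-/- tumors.

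Tumors were then set against skin, the tissue at the site of injection. In wild-type tumors 10 of 34 members tested were higher and 15 lower than in skin, against 57% of all genes called, 22.8% higher and 34.2% lower. In RAG1-/- tumors 7 of 34 were higher and 15 lower, against 59.8% of all genes called, 23.9% higher and 35.9% lower. Both comparisons use the same 2 skin libraries, and they share libraries with the comparisons against MC38 cells. The median log2 difference over the members was -0.66 and -0.64, against -0.18 and -0.20 over all genes. Of 27 and 26 members above an average of 5 on both sides, 20 and 16 were called, with 2 and 2 members above it only in the tumors and 5 and 6 only in skin. The values did not overlap for 14 lower and 7 higher members in wild-type (58% of all genes) and 16 lower and 6 higher in RAG1-/- tumors (62.3%). A rescaling to upper quartiles or to total counts raised the median of all genes by over 0.3, to 0.29 and 0.23 in wild-type and 0.30 and 0.21 in RAG1-/- tumors. The split of calls in RAG1-/- tumors then became 11 higher and 13 lower, with Adamts14, Mmp11, Mmp12 and Mmp13 added to the higher members.

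Mmp3, Adamts2 and Timp3 were among the lower members. Mmp3 (chr9:7445822-7455975), at 2608 and 3932 normalized counts in skin, was at 33.2, 55.4 and 42.8 in wild-type tumors at day 23, 122, 456 and 119 at day 46, 84.5, 28.9 and 96.2 in RAG1-/- tumors at day 13 and 36.7, 149 and 59.2 at day 23. The groups were far apart, with log2 differences of -5.14 (SE 0.59, limma, adjusted p = 4.68e-06) and -5.60 (SE 0.59, limma, adjusted p = 1.88e-06). Adamts2 differed by -5.55 (SE 0.75, limma, adjusted p = 2.31e-05) in wild-type and -5.99 (SE 0.75, limma, adjusted p = 1.01e-05) in RAG1-/- tumors, and Timp3 by -3.39 (SE 0.46, limma, adjusted p = 2.18e-05) and -4.76 (SE 0.46, limma, adjusted p = 7.39e-07), so both lay on average between the level of the cells and that of skin. Mmp2 and Mmp14 also lay between them, at -2.16 and -1.20 against skin in wild-type tumors (limma, adjusted p = 0.0104 and 1.16e-04) and -3.34 and -1.41 in RAG1-/- tumors (limma, adjusted p = 4.69e-04 and 2.51e-05). For Mmp2 the highest tumor, at 3320.0, exceeded the lower skin library, and the wild-type call was lost without skin replicate 1.

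Several lower members were close to absent from tumors. Timp4, the inhibitor of restricted tissue range, had 49.6 and 54.8 normalized counts in skin and 1 read in each tumor genotype, a ratio of 379-fold (95% interval 68.1 to 14977) and 333-fold (95% interval 59.8 to 13154). Without the 1 library that held the read, only a bound of at least 11.0-fold and 8.18-fold can be given. Timp4 also had no read in MC38 cells, at least 17.8-fold below skin (limma, adjusted p = 4.22e-04). Adamts18 had 44.2 and 26.8 in skin and no read in any tumor, at least 7.47-fold and 5.56-fold lower. Mmp27 had 71.0 and 107 in skin and at most 5.86 in a tumor, and Adamts17 had 69.7 and 31.9 and at most 4.39. All 4 passed in both genotypes (limma, adjusted p of 1.89e-04 at most in wild-type and 2.54e-04 in RAG1-/- tumors). Mmp23, at 496 and 394 in skin, differed by -4.68 and -5.61, Mmp15, at 246 and 243, by -4.42 and -3.85, and Adamts15, at 173 and 145, by -4.64 and -6.00 in wild-type and RAG1-/- tumors. Mmp19, at 276 and 273 in skin, Adamts1, at 1056 and 701, and Adamts5, at 631 and 565, made up the rest of the 15, by -2.59, -1.06 and -1.68 in wild-type and -2.86, -0.94 and -1.86 in RAG1-/- tumors. The last 500 exonic bases of Mmp19 lie wholly within Tmem198b on the other strand, which had 29.3 to 139 normalized counts, so its reads may be shared. The fibroblast markers summed to 14790 to 37015 in tumors and the skeletal muscle markers to 90850 to 130017 in skin, and the part of tissue makeup in these differences was not tested.

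The higher group held 7 members in RAG1-/- tumors, which were Adamts4, Adamts7, Adamts16, Mmp9, Mmp10, Mmp16 and Timp1. Timp1, at 346 and 344 normalized counts in skin, was higher by 1.13 (SE 0.26, limma, adjusted p = 0.00197) in wild-type and 1.51 (SE 0.26, limma, adjusted p = 1.88e-04) in RAG1-/- tumors, with every tumor above skin. Adamts7, at 21.4 and 17.8, was higher by 2.12 (SE 0.50, limma, adjusted p = 0.0023) and 2.17 (SE 0.50, limma, adjusted p = 0.00187), again with no overlap. Adamts4, at 216 and 187, differed by 1.27 and 0.98, Mmp16 by 1.16 and 1.40, and Mmp10, at 4.02 and 12.7, by 2.34 and 1.95. Mmp9 differed by 1.41 and 1.43. Adamts16, at 0 in skin, had at most 19.5 in a tumor, so that wild-type and RAG1-/- tumors were on average at least 1.77-fold and 1.26-fold higher, and the values overlapped. Without that tumor the wild-type bound was 1.15-fold. In wild-type tumors Mmp11, Mmp12 and Mmp13 passed as well, by 0.75, 1.62 and 1.85 (limma, adjusted p = 0.0212, 0.0228 and 0.00478), where RAG1-/- tumors had 0.39, 0.90 and 1.13 (limma, adjusted p = 0.202, 0.178 and 0.0594). Skin held Mmp12 at 303 and 162 and Mmp13 at 106 and 237, and the macrophage markers of skin summed to 6110 to 6822.

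Several of these calls were lost when 1 skin library was left out. Adamts16 had no read in either skin library, so its log2 differences of 2.26 in wild-type and 2.06 in RAG1-/- tumors could not move. The log2 difference of Mmp16 in wild-type tumors went from 1.16 to 0.71 without skin replicate 1. Without skin replicate 1 Adamts1, Adamts16, Mmp10, Mmp11, Mmp12, Mmp13, Mmp16, Mmp2 and Mmp9 lost their calls in wild-type tumors (adjusted p of 0.0553 to 0.327) and Adamts1, Adamts16, Mmp10, Mmp16 and Mmp9 in RAG1-/- tumors (0.0940 to 0.310), and without skin replicate 2 Adamts16, Mmp11 and Mmp12 lost theirs in wild-type (0.0719 to 0.273) and Adamts16 and Adamts4 in RAG1-/- tumors (0.0813 to 0.0941, limma). Mmp10 in RAG1-/- tumors was also lost without RAG1-/- day 13 replicate 3 (0.0513).

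**Figure D4:**
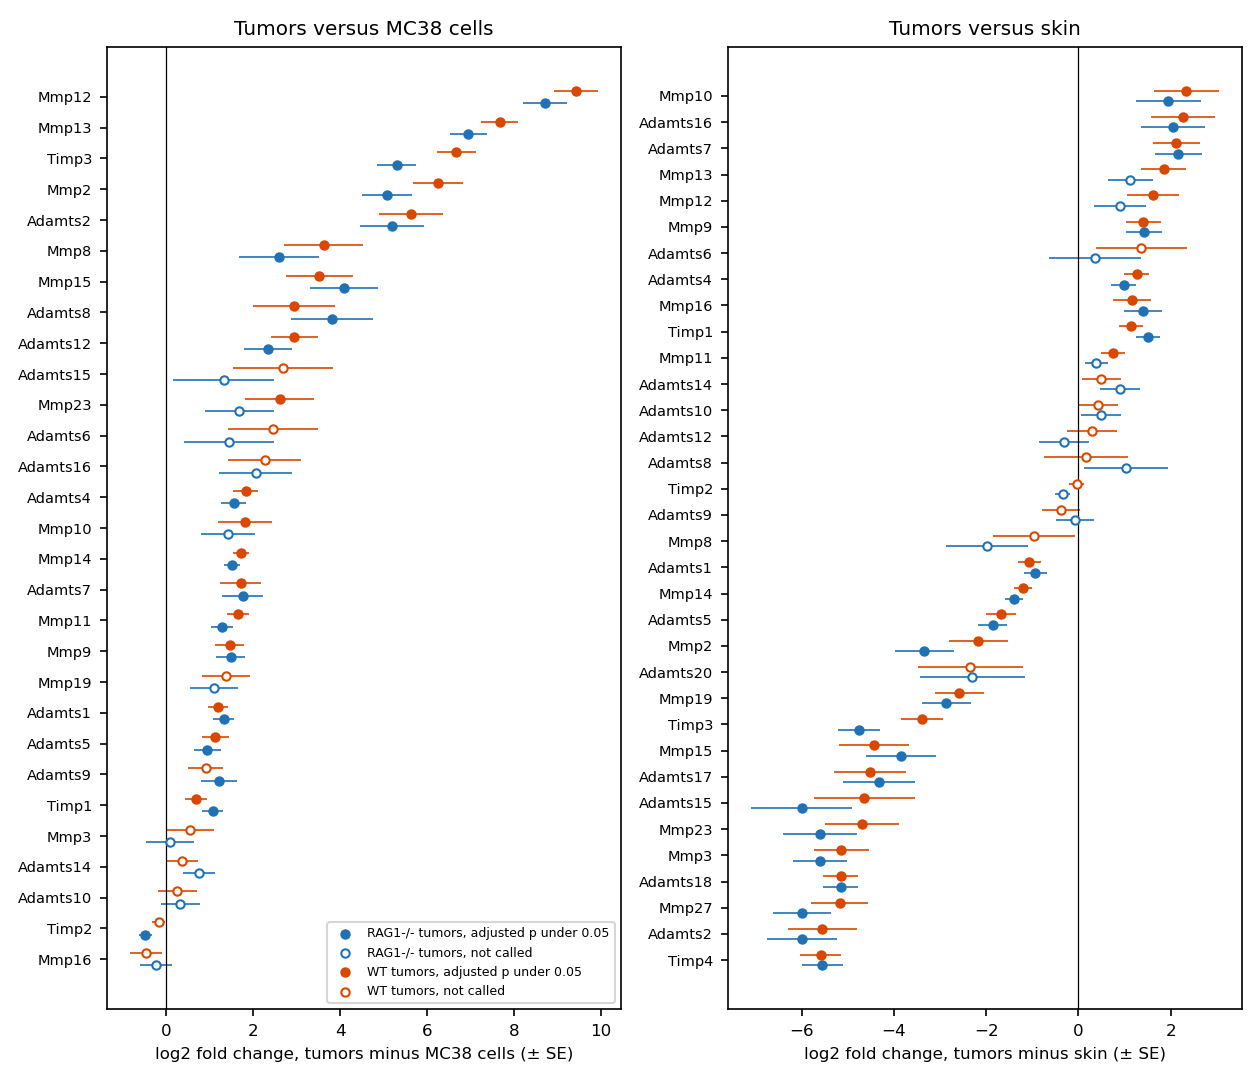
Log2 fold changes with SE of the members tested, for RAG1-/- and wild-type tumors (6 libraries each) against MC38 cells on the left and against skin on the right (2 libraries each), with filled points for an adjusted p under 0.05. Most points lie right of 0 on the left panel, and on the right panel Timp1, Adamts4, Adamts7 and Mmp9 lie right of 0 and Timp4, Adamts2, Mmp27 and Mmp3 far left.

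The comparison of hosts asked whether T and B cells changed these levels. At day 23, 0 of 29 members tested differed between wild-type and RAG1-/- tumors (limma), against 0.278% of all genes (0.231% higher and 0.0475% lower), and 6 had an unadjusted p under 0.05. Over both days 0 differed against 0.712% of all genes (0.57% higher and 0.142% lower), and 4 had an unadjusted p under 0.05. edgeR called 0 in both comparisons, and DESeq2 called 0 at day 23 and 1 over both days, Timp3. Values did not overlap at day 23 for Adamts7, Adamts9, Mmp16 and Timp1, lower in wild-type tumors, and Timp3, higher, against 16.1% of all genes, and over both days for 0 members, against 0.983%. For 3 libraries on each side the smallest p of an exact permutation test is 0.1.

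Over both days, Timp3 came nearest to a difference between hosts. Host and day are mixed in that contrast, since only day 23 was shared. Timp3 was higher at the later day in wild-type tumors with no overlap, and its values overlapped between the days in RAG1-/- tumors. Its 6 wild-type values had a lowest, median and highest of 213, 327 and 668 normalized counts and its 6 RAG1-/- values 60.2, 147 and 247. The log2 difference over both days was 1.37 (SE 0.32, limma, adjusted p = 0.0698), with an unadjusted p of 6.19e-04 in limma. A two-sided exact permutation test gave a p of 0.013, the smallest of the members tested and not adjusted for their number. Over both days Timp3 passed with DESeq2 (1.23, adjusted p = 0.00548) and in limma without RAG1-/- day 23 replicate 2 (1.64, adjusted p = 0.0166). That library had the highest value of its group at day 23. Over all alternatives the adjusted p of Timp3 ran from 0.00548 to 0.243. Timp2 had a difference of 0.30 and a p of 0.0303 in the same exact permutation test (limma, adjusted p = 0.328). Mmp12 and Mmp13 overlapped widely between the hosts, with differences of 0.71 (SE 0.37) and 0.72 (SE 0.31) over both days (limma, adjusted p = 0.49 and 0.387). At day 23 Mmp9 had 777, 292 and 433 in wild-type and 889, 704 and 1748 in RAG1-/- tumors, which overlapped by 1 library, with a difference of -1.16 (SE 0.35, limma, adjusted p = 0.208). Among the members tested at day 23 this adjusted p was the lowest. Timp3 had a difference of 1.31 at that day (SE 0.45, limma, adjusted p = 0.279). The T cell markers summed to 16.6 to 175 in wild-type and 1.11 to 19.1 in RAG1-/- tumors.

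Time within a host gave 0 calls of 29 in both genotypes with limma, where 0% of all genes were called. In wild-type tumors from day 23 to day 46, 5 members had an unadjusted p under 0.05, edgeR called 0 and DESeq2 called 2, Mmp3 and Mmp23. Adamts15, Adamts16, Mmp11, Mmp15, Mmp23, Mmp3 and Timp3 were higher at day 46 with no overlap, against 12.5% of all genes. Mmp23 had 5.16, 2.56 and 4.75 normalized counts at day 23 and 70.4, 90.6 and 30.8 at day 46, a difference of 3.56 (SE 0.82, limma, adjusted p = 0.385). Mmp3 had 33.2, 55.4 and 42.8 at day 23 and 122, 456 and 119 at day 46, a difference of 2.11 (SE 0.58, limma, adjusted p = 0.385). Col1a1, the main fibrillar collagen, had 2451, 1073 and 1247 at day 23 and 5327, 11095 and 2680.2 at day 46 in the same libraries, and its part in these values was not tested.

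In RAG1-/- tumors from day 13 to day 23, 8 members had an unadjusted p under 0.05, edgeR called 0 and DESeq2 called 2, Adamts7 and Mmp9. Adamts10, Adamts7, Adamts9, Mmp10, Mmp11, Mmp12, Mmp13 and Mmp9 were higher and Adamts16 and Mmp14 lower at day 23 with no overlap, against 19.4% of all genes. Mmp9 had 372, 318 and 321 at day 13 and 889, 704 and 1748 at day 23, a difference of 1.61 (SE 0.35, limma, adjusted p = 0.167). Adamts7 had 31.0, 57.8 and 70.5 at day 13 and 117, 209 and 188 at day 23, a difference of 1.70 (SE 0.48, limma, adjusted p = 0.219). Mmp14 had 2569, 3128 and 3157 at day 13 and 1407, 1943 and 2452 at day 23, a difference of -0.64 (SE 0.20, limma, adjusted p = 0.254). In RAG1-/- day 13 replicates 1 and 3 the skeletal muscle markers summed to 8137 and 8424 normalized counts, against 39.8 to 1208 in all other tumors. Leaving out both leaves only replicate 2 at day 13, so that fit cannot show whether they matter, and their part in these values was not tested.

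The change with time was also compared between the hosts, although the days differ, and 0 of 29 members passed (limma, 0% of all genes), with 7 at an unadjusted p under 0.05. edgeR called 0 and DESeq2 called 1, Mmp23. The largest estimate was that of Adamts16, at 5.24 (SE 1.20, limma, adjusted p = 0.281), from 8.56, 8.90 and 6.67 and 0, 0 and 6.19 in RAG1-/- tumors at day 13 and 23 and 0, 0.852 and 1.58 and 12.7, 8.06 and 19.5 in wild-type tumors at day 23 and 46, all low counts.

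**Figure D5:**
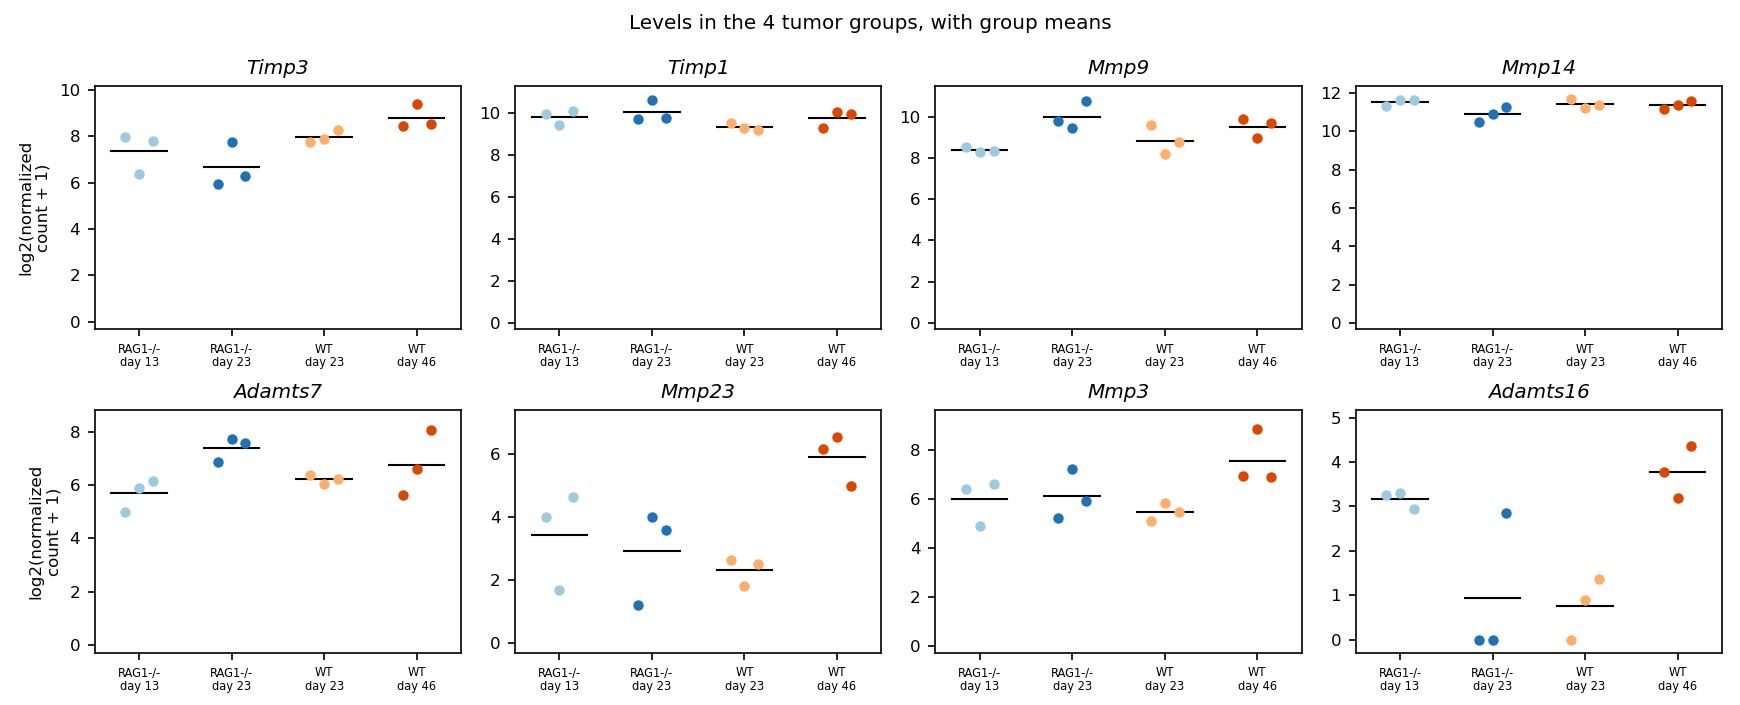
Levels of 8 members in the 4 tumor groups as log2(normalized count + 1), with 1 point per library (n = 3 per group) and a line at the group mean. Timp3 is higher in both wild-type groups on average with some overlap, Mmp23 and Mmp3 are highest in wild-type tumors at day 46, and no member passed the limma test between these groups.

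The list of other genes that set the activity of this system held 15 further regulators, among them the plasminogen activators, their receptor and inhibitors and the convertases that activate pro-MMPs. In MC38 cells 2 of 13 tested were higher and 11 lower than in skin, against 20.8% and 41.2% of all genes. The largest log2 differences were those of Serpinb2 (-9.95), Serpine2 (-9.04), the convertase Pcsk6 (-8.73) and Plau, urokinase (-6.87). All of these named genes had no read in the cells, so their differences depend on the 1 added to each count. They passed the filter through skin and could not come out higher in the cells. Against MC38 cells 8 of 14 were higher and 0 lower in each tumor genotype, against 18.3% and 9.61% of all genes in wild-type and 15.8% and 7.55% in RAG1-/- tumors. In wild-type tumors the largest were Serpine2 (6.67), Plau (6.09), Pcsk5 (4.94) and Tfpi2 (4.69), and in RAG1-/- tumors Serpine2, Plau and Tfpi2 had 7.04, 6.40 and 5.04. These genes had no read in the cells, so they passed the filter through the tumors and could not come out lower. The filter thus shaped this count as well, and the sizes depend on the 1 added to each count. Against skin 3 of 14 were higher and 6 lower in wild-type and 3 higher and 7 lower in RAG1-/- tumors. Of all genes 57% and 59.8% were called in either direction. Plaur, the urokinase receptor, differed by 2.72 and 2.82 and Serpinb2 by -7.49 and -7.16 in wild-type and RAG1-/- tumors. Between tumor groups 0 of 14 passed in any comparison.

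Of 20 matrix substrates, 5 of 19 tested were higher and 13 lower in MC38 cells than in skin, against 20.8% and 41.2% of all genes. The largest were the fibrillar collagens Col1a1 (-14.20) and Col1a2 (-13.29) and the small proteoglycans Lum (-12.59) and Bgn (-10.82). Lum had no read in the cells and Bgn 4.28 and 0 normalized counts, so their differences depend on the 1 added to each count. In each tumor genotype 12 of 18 were higher than in MC38 cells and 0 lower, against 18.3% and 15.8% of all genes higher in wild-type and RAG1-/- tumors. Bgn had 9.27 and 8.52, Col1a1 8.59 and 8.33, Tnc, tenascin C, 7.66 and 7.77 and Col1a2 7.37 and 7.03 in wild-type and RAG1-/- tumors. Tnc and Lum had no read in the cells, so they passed the filter through the tumors and could not come out lower. Against skin 6 were higher and 9 lower in wild-type and 5 higher and 9 lower in RAG1-/- tumors, against 57% and 59.8% of all genes called, with Col1a1 at -5.62 and -5.87 and elastin, Eln, at -3.68 and -4.26. Between tumor groups 0 of 18 passed in any comparison.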

How the data were processed

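QuantSeq 3′ mRNA libraries of MC38 cells, skin and 4 tumor groups were analysed. The authors trimmed reads with Cutadapt and Trimmomatic, aligned them with STAR and then Bowtie2 to mm10, obtained read counts for each gene from HTSeq-count and divided by DESeq2 size factors. The submitters' processing notes name these tools, and their versions, the annotation and the strand setting are not given in the sources used here. The deposited values are this normalized signal, and dividing by 1 read's worth gave whole reads for 100% of values in all 16 libraries (tolerance 0.01). Of 22 libraries, the 6 of a separate antibody table were not used here.

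Members and gene lists were chosen with earlier results of these data known. Levels were tested with limma 3.58.1 (trend, two-sided) in R 4.3.3 on log2(normalized count + 1), keeping genes that averaged at least 5 over the fitted libraries, with Benjamini-Hochberg adjustment over all genes tested and a threshold of 0.05. For low genes this scale gives too small a fold change. MC38 and skin were fitted together, and the 12 tumors with MC38, with skin or alone. Exact permutation tests used scipy 1.17.1. Where all libraries of a group were at 0, a lower bound against 3 reads in the library where they weigh most is given, and with few reads a ratio with its 95% exact Poisson interval. The fits were tested on simulated data. Alternatives were pseudocounts, filters, rescaling, no trend, a replicate block, other sets of libraries, single libraries left out, edgeR 4.0.16 and DESeq2 1.42.0 on the recovered reads, and, added after seeing the data, the muscle-rich RAG1-/- libraries left out. Any member could be named. Values are given for members past the threshold or averaging at least 100 normalized counts in a group, and from each pathway list up to 4 genes with the largest changes. Promoters came from RefSeq (GRCm38.p6, 32 of 46 members matched), gene positions from GENCODE on mm10.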

Additional observations from a re-analysis of the deposited data

Results flagged for a closer look

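A single library far from the other 5 of its genotype was found in 14 of 58 sets of values (24.1%), all 14 at the high end, and 6 of these were in wild-type day 46 replicate 3. In that library Mmp2 had 3320.0 normalized counts, Adamts4 840.0, Mmp16 430.1, Adamts7 266, Adamts8 205 and Adamts12 70.3, each the highest of the 6 wild-type tumors. For independent values from a normal distribution the threshold flags about 1 set in 20, but these sets hold untransformed counts of 2 days and share their libraries. Wild-type day 46 replicate 2 held the highest Mmp3 at 456, Timp3 at 668 and Adamts15 at 45.7. Mmp10 was highest in wild-type day 46 replicate 1 at 139.8.

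Among RAG1-/- tumors, day 23 replicate 3 held the highest Mmp2 at 1175 and Timp2 at 11026.5, and day 23 replicate 2 the highest Mmp10 at 136 and Adamts15 at 19.2. RAG1-/- day 23 replicate 2 was the library of lowest depth.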

How the results depend on the processing

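Over all members tested and all alternatives, 1901 calls were kept, 152 lost and 64 gained, 3831 values stayed uncalled and 0 called values turned sign. Of the gains, 8 were those of Mmp13 in RAG1-/- tumors versus skin. Leaving out 1 library at a time gave 16 to 21 members called for MC38 cells versus skin, 12 to 19 for RAG1-/- and 12 to 20 for wild-type tumors versus MC38 cells, 13 to 25 for wild-type and 15 to 23 for RAG1-/- tumors versus skin, 0 to 1 for wild-type versus RAG1-/- tumors over both days and 0 in the other comparisons of tumors. The fewest calls came without MC38 replicate 1 or 2 (12 in RAG1-/-), without MC38 replicate 1 (12 in wild-type) and without skin replicate 1 (13 in wild-type tumors versus skin, 3 higher and 10 lower). The 1 call over both days came without RAG1-/- day 23 replicate 2. DESeq2 called 1 member for wild-type versus RAG1-/- tumors over both days, 2 for wild-type tumors by day, 2 for RAG1-/- tumors by day and 1 for the difference between them, where limma called 0. The cause was not tested.

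Rescaling to upper quartiles or totals moved the median of all genes for MC38 cells versus skin from -0.40 to 0.27 and 0.04, and the RAG1-/- tumors versus skin then had 11 members higher and 13 lower against 7 and 15. With the replicate number as a block, the counts called were 25 for MC38 cells versus skin, 16 and 17 for RAG1-/- and wild-type tumors versus MC38 cells, 25 for each genotype versus skin and 0 between tumor groups. Deviations of same-numbered libraries correlated at -0.011 for MC38 and skin and at -0.236 to 0.246 over 18 tumor pairs, of which 4 exceeded 0.1. These included all 3 pairs of RAG1-/- day 23 with wild-type day 46 (0.105 to 0.208, against -0.159 to 0.017 for different numbers), groups that are not compared with each other alone. In the other 5 pairs of tumor groups at least 1 same-numbered pair lay below 0.1, and no label ties the numbers together, so the numbers were not taken to pair the samples. Without the muscle-rich RAG1-/- day 13 replicates 1 and 3, 15 members were called versus MC38 cells and 22 versus skin. With 2 libraries of MC38 cells and of skin, small differences could not be resolved, and members with few reads are limited by depth.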

Other observations

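Among matrix substrates, wild-type day 46 replicate 3 had 28825 normalized counts of Fn1, fibronectin, and 5659 of Vcan, versican. Wild-type day 46 replicate 2 had 11095 of Col1a1 and 13504 of Col1a2. The MC38 cells held Col3a1 at 4040.2 and 3336 while Col1a1 stood at 0.856 and 28.4, and Pdgfra, a fibroblast receptor, stood at 1220.1 and 1250.3 in the same libraries.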
